A study of Mus musculus with 6 samples.

Results

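The genes of the S phase and of mitosis were followed in C0321 tumors with and without sulindac sulfide (SS). The set was a list of 49 named genes of the cell division cycle, and its members were the entries of the deposited count table that carried one of these gene symbols, with transcripts summed by symbol. Of the 49 genes, 47 were in the table, which held 13730 genes, and 42 had enough counts to be tested among 10902 genes. Ccne1 and Cdc25c were not analysed here. Cdc6, Cdt1, Gmnn, Aurka and Birc5 were in the table, with 0 to 18 counts per tumor, too few to be tested.

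RNA was sequenced from 6 tumors, 3 of them from the control arm and 3 from animals dosed orally with SS, the active metabolite of the anti-inflammatory drug sulindac (60 mg/kg daily over 14 days). All tumors grew from C0321 cells placed with Matrigel in the mammary fat pad of female FVB mice aged 6 to 10 weeks. C0321 is a single triple-negative breast cancer (TNBC) line of the claudin-low kind, from a mouse lacking Lunatic Fringe (Lfng-/-). The injected cells of both groups therefore carried this deletion and came from 1 line. The sample labels write the drug as a sulfate, and the control is called saline in the series description and vehicle in the paper. The claudin-low label was not settled by these values. In counts per 1000000 (CPM), Cldn3 was at 5.41 to 10.4, Cldn4 at 0.761 to 3.53, Epcam at 0.0410 to 2.98 and the mesenchymal gene Vim at 5874 to 8620, and the epithelial keratins Krt8, Krt18 and Krt19 were at 417 to 544, 59.5 to 98.1 and 4.51 to 306, and the basal keratin Krt5 at 0 to 73.1. Lfng itself was detected at 4.65 to 6.40 CPM. Which exons these counts came from is not given, and whole tumors also hold cells of the FVB host. These counts therefore do not check the deletion. Rounded counts totalled 12314424, 20486405 and 24441553 for control tumors 1 to 3, against 13696699, 8468948 and 12071376 for SS tumors 1 to 3, and 3 counts, taken as the limit of detection, correspond to 0.123 to 0.358 CPM. Below, the 3 values of a group are always in the order of tumors 1, 2 and 3, differences are log2 fold changes ± SE with SS over control (n = 3 per group), and a positive value is higher in SS tumors.

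Cells divide by passing from G1, where growth signals act through D-type cyclins, into S phase, where the genome is copied, and then through G2 into mitosis, where the copies are parted. Cyclins bind and switch on cyclin-dependent kinases at each step, and many genes of the cycle are transcribed only shortly before their product is needed. E2F factors drive much of the wave before S phase, and the DREAM complex, B-Myb and Foxm1 govern the later wave before mitosis, in part through short promoter elements called the cell cycle homology region (CHR) and the CCAAT box. In tumor tissue the RNA of these genes is widely used as a measure of proliferation.

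Promoters of the early and late members held these elements in different shares, given here as a description. A window of the 250 bases before the RefSeq start (build GRCm38.p6) was available for 37 members and was searched on both strands for the CHR core TTTGAA, for CCAAT and for the E2F core TTTNNCGC. TTTGAA was present in 6 of 17 genes of G2/M and mitosis (35.3%) and in 2 of 17 genes of G1/S, replication, nucleotide synthesis and repair (11.8%), against 18.3% of all 27025 genes with a window. CCAAT was present in 82.4% of the late and 70.6% of the early genes, against 37.5% of all genes. TTTNNCGC was present in 5.88% of the late and 35.3% of the early genes, against 4.94% of all genes. These counts describe letters in a window and not bound sites.

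Shown are the 130 bases directly before the start of 5 members, 5′ to 3′ on the strand of the gene, chosen to display each arrangement. Capitals mark the letters of a match on either strand. Cdk1 (chr10:69352913-69353042, minus strand) held all 3 motifs, with 2 copies each of TTTGAA and CCAAT. Ccnb2 (chr9:70421555-70421684, minus strand) held 3 copies of CCAAT at even spacing, and its TTTGAA lay further upstream. Cdc20 (chr4:118437344-118437473, minus strand) held TTTGAA 13 to 18 bases before the start, with CCAAT on either side. Mcm6 (chr1:128359706-128359835, minus strand) is shown as an example of the E2F core, which 6 of the 17 early genes had, and held 3 E2F cores and 2 copies of CCAAT, and 2 of the cores overlapped on opposite strands. Cdk4 (chr10:127063405-127063534, plus strand), of the G1 entry group, held none of the 3 motifs.
Cdk1: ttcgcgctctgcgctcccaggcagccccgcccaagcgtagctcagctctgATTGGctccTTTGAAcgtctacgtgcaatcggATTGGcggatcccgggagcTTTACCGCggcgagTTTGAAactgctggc
Ccnb2: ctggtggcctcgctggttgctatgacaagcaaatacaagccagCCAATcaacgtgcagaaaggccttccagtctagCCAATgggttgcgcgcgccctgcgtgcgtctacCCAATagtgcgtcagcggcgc
Cdc20: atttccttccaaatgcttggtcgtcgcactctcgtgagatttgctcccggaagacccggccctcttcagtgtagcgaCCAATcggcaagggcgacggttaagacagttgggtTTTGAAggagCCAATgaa
Mcm6: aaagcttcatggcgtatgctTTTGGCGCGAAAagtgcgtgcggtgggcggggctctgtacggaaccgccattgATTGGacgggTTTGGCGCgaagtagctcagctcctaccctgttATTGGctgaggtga
Cdk4: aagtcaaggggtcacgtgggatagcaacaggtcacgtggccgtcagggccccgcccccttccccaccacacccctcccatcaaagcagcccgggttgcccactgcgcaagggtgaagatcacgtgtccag

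For none of the 42 tested members did the comparison of SS and control tumors pass the test. With edgeR (quasi-likelihood, p-values adjusted after Benjamini and Hochberg over all genes), 0 of 42 members had an adjusted p-value under 0.05 (0 of 10902 genes, 0%), and their adjusted p ranged from 0.771 to 1.000. At an unadjusted p under 0.05 the members also numbered 0 of 42, while 6.36% of all genes lay under it, 3.19% higher and 3.16% lower in SS tumors. DESeq2 gave an adjusted p to 21 of the members, with 0 under 0.05 and a smallest of 0.562, while 0.58% of the genes it adjusted lay under 0.05. At an unadjusted p under 0.05, DESeq2 and limma-voom each held 1 of 42 members, Cdk6, against 6.32% and 6.99% of all genes. The values of the groups did not overlap for Mcm4 and Ttk only, both higher in SS tumors, which is 2 of 42 members (4.76%) against 12.9% of all genes.

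In direction, 28 members were higher and 14 lower in SS tumors (50.2% of all genes were lower), and the median difference was 0.094, against -0.0013 for all genes tested. This balance turned on single tumors. Without control tumor 2 the median was 0.29 with 7 of 42 members lower, and without control tumor 3 it was -0.0091 with 23 of 42 lower. SEs of the members ran from 0.10 to 0.83, and all 42 of the 95% intervals spanned 0. For 26 members the interval lay within 1 log2 unit, a 2-fold change, on both sides. For 29 the interval stayed below a 2-fold increase and for 35 above a 2-fold decrease, and for the other members the interval did not exclude a larger change. In whole tumors, fewer dividing cells and less RNA per dividing cell cannot be told apart.

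**Figure D1:**
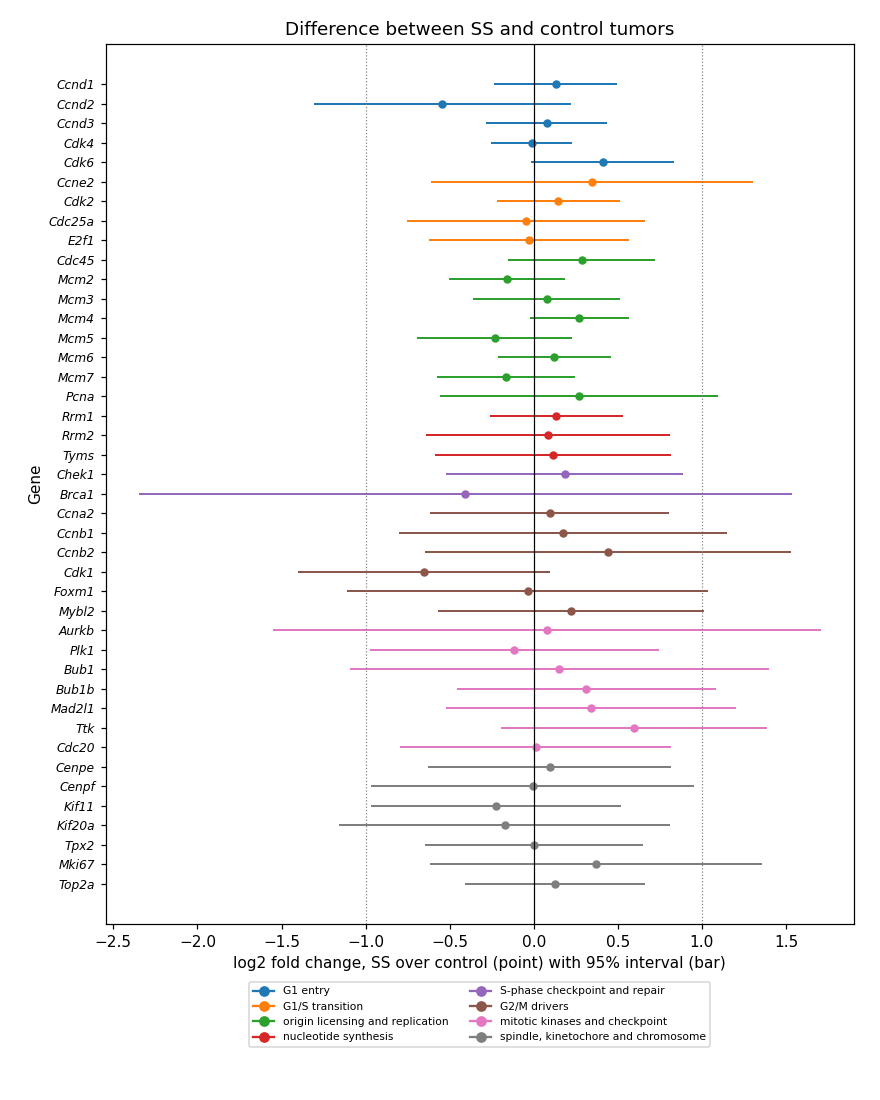
Log2 fold change of SS over control tumors (horizontal axis) for each of the 42 tested members, colored by role. Points are edgeR estimates, bars are 95% intervals, and dotted lines mark 1 log2 unit. All 42 bars cross 0, and the widest belong to Brca1 and Aurkb.

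Among the genes of G1 entry, the median difference of the 5 members was 0.076, and 4 of 5 intervals lay within 1 log2 unit. Ccnd1, which encodes cyclin D1, the partner of Cdk4 and Cdk6, was at 45.9, 58.5 and 52.3 CPM in control tumors and at 65.2, 58.8 and 47.6 CPM in SS tumors. The difference was 0.13 ± 0.15, with an interval of -0.23 to 0.49, and the groups overlapped. Ccnd2, which encodes cyclin D2, was at 10.5, 11.9 and 7.63 against 5.15, 10.1 and 5.49 CPM (-0.54 ± 0.33). SS tumors 1 and 3 lay below every control tumor and SS tumor 2 lay among them. On leaving out 1 tumor the difference of Ccnd2 was -0.91 when SS tumor 2 was omitted and -0.37 when SS tumor 1 was. Ccnd3, for cyclin D3, was at 22.7 to 28.2 CPM in control and 24.3 to 28.9 CPM in SS tumors.

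Cdk4, the kinase driven by D-type cyclins, was at 296, 330 and 273 CPM in control tumors and 310, 291 and 290 CPM in SS tumors. It had the smallest SE of the members, a difference of -0.013 ± 0.10 and an interval of -0.25 to 0.22. Cdk6, the other kinase of this step (chromosome 5, positions 3343893 to 3531005, by the table), was at 48.8, 44.8 and 41.3 against 65.5, 44.1 and 69.4 CPM. SS tumors 1 and 3 were above every control tumor, and SS tumor 2 lay within the control range. The difference was 0.41 ± 0.18, the smallest p of the members, with an edgeR adjusted p of 0.771. On leaving out 1 tumor it was 0.29 when SS tumor 3 was omitted and 0.58 when SS tumor 2 was.

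At the G1/S transition the median difference was 0.058 over 4 members. E2f1, which encodes an activator of S-phase genes, was at 14.1, 18.5 and 17.1 CPM in control and 17.1, 10.9 and 20.7 CPM in SS tumors (-0.030 ± 0.25), with SS tumors at both ends of the range. Ccne2, for cyclin E2, was at 2.92, 4.28 and 1.68 against 3.77, 3.70 and 3.80 CPM (0.35 ± 0.41). The SS tumors were nearly level and sat inside the control range. Cdc25a, for a phosphatase that removes the block on Cdk2, was at 6.48 to 7.47 CPM in control and 4.35 to 8.87 CPM in SS tumors. Cdk2, the kinase of cyclins E and A, was at 72.9, 60.0 and 56.8 against 58.1, 78.9 and 72.9 CPM (0.15 ± 0.16), and the groups overlapped.

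Cdk2 was the one member for which the make-up by transcript separated the groups, a comparison added after its values had been seen. The table splits the gene (chromosome 10, positions 128697939 to 128705051, minus strand) into a transcript of 2406 bases and one of 2240 bases. The longer one made up 68.6%, 59.6% and 67.8% of the estimated Cdk2 counts in control tumors and 54.0%, 35.4% and 47.4% in SS tumors, or 65.3% ± 5.01 and 45.6% ± 9.43 (SD, n = 3). All SS tumors lay below all control tumors. The shorter transcript was at 23.0, 24.3 and 18.3 CPM in control and 26.7, 51.0 and 38.3 CPM in SS tumors, a difference of 0.82 ± 0.26 with an edgeR adjusted p of 0.855 over 15132 transcripts. The longer one was at 50.4, 35.8 and 38.5 against 31.5, 27.9 and 34.5 CPM (-0.41 ± 0.18, adjusted p of 0.886).

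Of 13 members with several transcripts, only Cdk2 had shares of the leading transcript that did not overlap between groups (7.69%, against 11.4% of 3761 genes with several transcripts). Tested as transcripts, 0 of 56 had an edgeR adjusted p under 0.05 and 1 of 56, the shorter Cdk2 transcript, an unadjusted p under 0.05, against 5.58% of all transcripts. The split is an estimate. For Bub1, Ccne2 and Tpx2 the share of the leading transcript was the same in all 6 tumors to within 0.01 percentage points. These 3 are among the 13 but could not separate the groups. For Kif20a it was 68.3% in every tumor but SS tumor 1 (90.2%). Mcm7 stood at 83.5% in control tumor 2 and SS tumors 2 and 3, and Tyms at 53.2% in control tumor 1 and SS tumors 2 and 3.

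**Figure D2:**
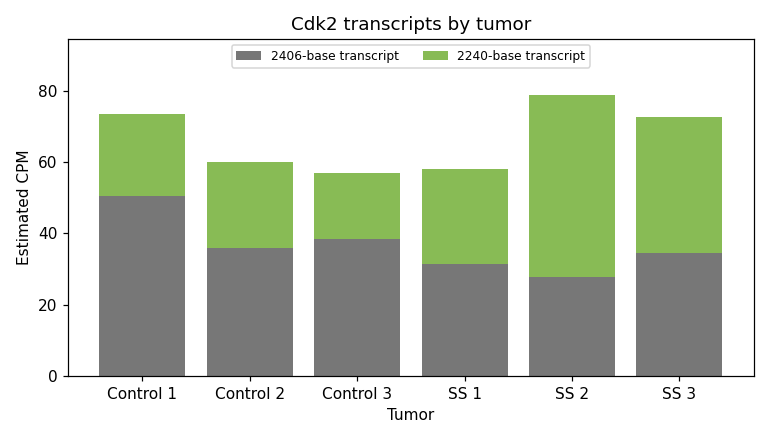
Estimated CPM (vertical axis) of the 2 Cdk2 transcripts, stacked, in each tumor. The gray part, the longer transcript, is 59.6% to 68.6% of the bar in control tumors and 35.4% to 54.0% in SS tumors.

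The genes of origin licensing and replication had a median difference of 0.099 over 8 members, and 7 of 8 intervals lay within 1 log2 unit. Mcm2 to Mcm7 encode the 6 subunits of the helicase ring that opens DNA at origins, and they did not share a direction. Mcm4 (chromosome 16, positions 15623897 to 15637400) was at 69.7, 67.8 and 54.6 CPM in control and 79.0, 77.1 and 75.6 CPM in SS tumors. Every SS tumor was above every control tumor, with a difference of 0.27 ± 0.12 and an edgeR adjusted p of 0.780. Mcm3 (0.076) and Mcm6 (0.12) were also on the higher side, without separation of the groups. Mcm2 was at 43.9, 50.4 and 41.9 against 38.0, 47.5 and 36.7 CPM (-0.16 ± 0.15, interval -0.50 to 0.18). Mcm5, at 27.3, 28.6 and 19.4 against 24.3, 20.6 and 19.1 CPM (-0.23 ± 0.20), and Mcm7 (-0.16 ± 0.17) lay on the lower side, and the groups overlapped for all 3.

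Cdc45, which joins the Mcm ring to form the active helicase, was at 38.1, 41.2 and 29.0 CPM in control and 41.9, 37.3 and 52.5 CPM in SS tumors (0.29 ± 0.19). SS tumors 1 and 3 were above the control tumors and SS tumor 2 was within their range. Pcna, the sliding clamp of DNA polymerases, was at 2.92, 4.13 and 2.71 against 4.86, 2.98 and 3.89 CPM (0.27 ± 0.35), with overlap. The untested Cdt1, which loads the Mcm ring, was at 0.395, 0.639 and 0.451 against 0.726, 0.119 and 0.423 CPM. Cdc6, its partner in loading, was at 0.0410 to 0.295 and 0 to 0.358 CPM, and Gmnn, for the Cdt1 inhibitor geminin, at 0.0410 to 0.869 and 0.169 to 0.653 CPM. Each of the 3 had at least 1 tumor at or under the limit of 3 counts, and none was compared.

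For nucleotide synthesis, all 3 members lay slightly on the higher side, at 0.083 to 0.14, and their intervals lay within 1 log2 unit. Rrm2, the regulated subunit of ribonucleotide reductase, was at 22.1, 34.8 and 14.2 CPM in control and 28.5, 21.7 and 24.9 CPM in SS tumors (0.083 ± 0.31, interval -0.64 to 0.80). The control tumors spanned all SS tumors. Rrm1, the catalytic subunit, was at 73.8 to 108 CPM in control and 84.5 to 106 CPM in SS tumors, and Tyms, which makes thymidylate, was at 5.85 to 8.21 and 5.58 to 9.94 CPM. In the checkpoint and repair pair, Chek1, the kinase that answers stalled replication, was at 4.51, 6.29 and 5.87 against 8.13, 4.53 and 6.25 CPM (0.19 ± 0.30). Brca1, which acts in repair by homologous recombination, was at 1.19, 1.77 and 0.164 against 1.09, 0.715 and 0.507 CPM. Its SE of 0.83 was the largest of the members, and the interval reached from -2.34 to 1.53.

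The drivers of G2/M held the lowest difference of all members, that of Cdk1, beside a group median of 0.13. Cdk1, the kinase that starts mitosis (chromosome 10, positions 69336635 to 69352912, promoter shown above), was at 10.6, 14.9 and 6.36 CPM in control and 7.26, 6.44 and 6.51 CPM in SS tumors. The SS tumors were nearly level and lay near control tumor 3, the lowest of the controls. The difference was -0.65 ± 0.32 with an interval of -1.40 to 0.091 and an edgeR adjusted p of 0.792. It was -0.92 without control tumor 3 and -0.33 without control tumor 2.

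The cyclins that bind Cdk1 lay on the other side of 0. Ccnb1, for cyclin B1, was at 2.06, 4.37 and 2.30 against 3.92, 2.62 and 3.30 CPM (0.17 ± 0.42, interval -0.80 to 1.14), and Ccnb2, for cyclin B2, was at 2.13, 6.73 and 3.20 against 6.17, 6.56 and 3.80 CPM (0.44 ± 0.47, and 1.03 without control tumor 2). Control tumor 2 was the highest of the 6 for both. Ccna2, for cyclin A2, was at 26.0, 52.9 and 23.6 against 39.6, 31.6 and 38.2 CPM (0.094 ± 0.30). Without control tumor 2, every SS tumor was above the remaining controls for Ccna2, and the difference was 0.56. Foxm1, a transcription factor of the late wave, was at 6.88, 9.98 and 3.49 against 10.1, 4.53 and 5.07 CPM (-0.036 ± 0.46). Mybl2, which encodes B-Myb, was at 10.6 to 26.2 CPM in control and 15.2 to 24.0 CPM in SS tumors.

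**Figure D3:**
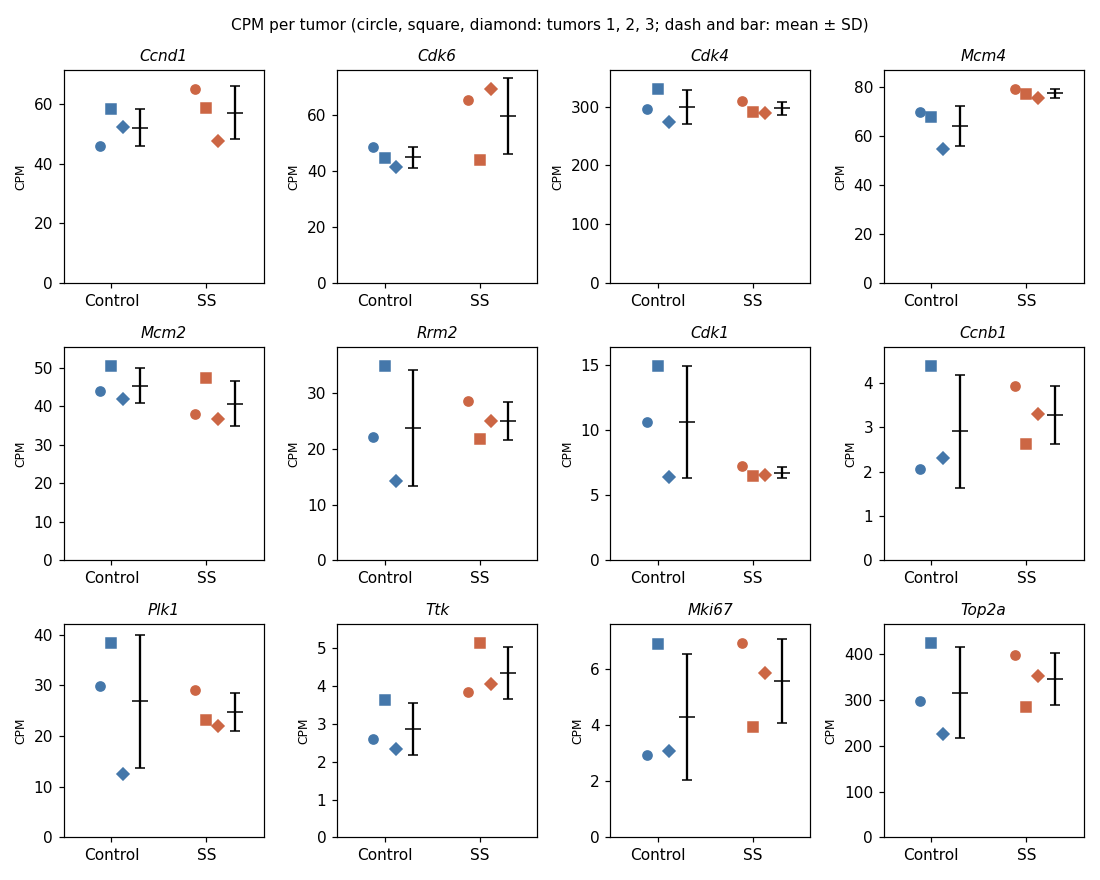
CPM (vertical axis) of 12 members in each control and SS tumor, with the group mean ± SD beside the points. Mcm4 and Ttk are the panels in which the groups do not overlap, and Cdk1, Plk1 and Rrm2 show control tumors spread from the lowest to the highest value of the panel.

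Among mitotic kinases and checkpoint genes the median difference was 0.15 over 7 members. Ttk, the kinase also called Mps1 that starts the spindle checkpoint (chromosome 9, positions 83834689 to 83872390), was at 2.61, 3.64 and 2.34 CPM in control and 3.85, 5.13 and 4.06 CPM in SS tumors. All SS tumors were above all controls, and the difference of 0.60 ± 0.34 was the highest of the members, with an edgeR adjusted p of 0.813. Bub1b, a checkpoint protein that restrains Cdc20, was at 2.77, 4.52 and 2.95 against 3.99, 4.29 and 4.48 CPM (0.31 ± 0.33). Control tumor 2 lay above the SS tumors and the other controls below them. Plk1, a kinase of mitotic entry and spindle assembly, was at 29.9, 38.3 and 12.6 against 29.0, 23.1 and 22.1 CPM (-0.12 ± 0.37, interval -0.97 to 0.74), within a wider control range. Aurkb, the kinase of the chromosomal passenger complex, was at 3.56, 3.83 and 1.56 against 3.63, 0.596 and 5.07 CPM (0.076 ± 0.70). SS tumor 2, the library with the fewest counts, was the lowest and SS tumor 3 the highest. The untested Birc5, which encodes survivin of the same complex, was at 0.711, 0.344 and 0.123 against 1.31, 0.239 and 0.338 CPM. Cdc20, which activates the anaphase-promoting complex (APC/C), was at 7.51, 17.1 and 7.55 against 10.5, 9.78 and 12.1 CPM (0.010 ± 0.35).

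The other members of this role were close to 0 relative to their errors. Mad2l1, whose product holds Cdc20 inactive until chromosomes are attached, was at 6.80, 6.83 and 2.87 against 7.84, 5.96 and 6.93 CPM (0.34 ± 0.37), with control tumor 3 well below the remaining tumors. Bub1, a checkpoint kinase at kinetochores, was at 1.58, 1.72 and 1.52 against 2.47, 0.715 and 2.11 CPM (0.15 ± 0.53), and SS tumors lay on both sides of the controls. Aurka, the kinase of the spindle poles, was not tested and was at 0.164 to 0.474 CPM in control and 0.0845 to 0.290 CPM in SS tumors.

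For spindle, kinetochore and chromosome genes the median difference was 0.0013 over 7 members. Mki67, which encodes the Ki-67 protein used to stain dividing cells, was at 2.92, 6.88 and 3.08 CPM in control and 6.89, 3.93 and 5.83 CPM in SS tumors (0.37 ± 0.42, interval -0.61 to 1.35). On leaving out 1 tumor the difference of Mki67 ran from 0.17 (without control tumor 1) to 0.89 (without control tumor 2). Control tumor 2 and SS tumor 1 were the highest and almost level. Top2a, the topoisomerase that untangles sister chromatids, was at 298, 423 and 227 against 397, 285 and 353 CPM (0.13 ± 0.23, interval -0.40 to 0.66). The SS tumors lay inside the control range, as they did for Kif20a, a kinesin of cytokinesis, at 9.88, 17.0 and 5.05 against 11.8, 7.63 and 8.70 CPM. Kif11, the kinesin that parts the spindle poles, was at 15.4, 20.7 and 8.78 against 15.5, 11.1 and 11.7 CPM (-0.22 ± 0.32), again inside the control range. Tpx2, Cenpe and Cenpf, which act in spindle assembly and at kinetochores, had differences of 0.0013, 0.094 and -0.0071.

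The larger differences lay between tumors of the same group, an order noticed after the values had been seen and given as a description. Of the 42 members, 41 were higher in control tumor 2 than in control tumor 3, with Ccnd3 as the exception (97.6%, against 50.4% of all genes). Control tumor 2 was the highest of all 6 tumors for 23 members and SS tumor 1 for 12, while control tumor 3 was the lowest for 22. The mean log2 CPM of the members was 3.70, 4.14 and 3.38 in control tumors against 3.99, 3.66 and 3.84 in SS tumors, so the groups differed by 0.089 against an SD of 0.38 among controls and 0.17 among SS tumors. As a share of all counts, members took 0.145%, 0.175% and 0.120% in control tumors against 0.168%, 0.140% and 0.151% in SS tumors.

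**Figure D4:**
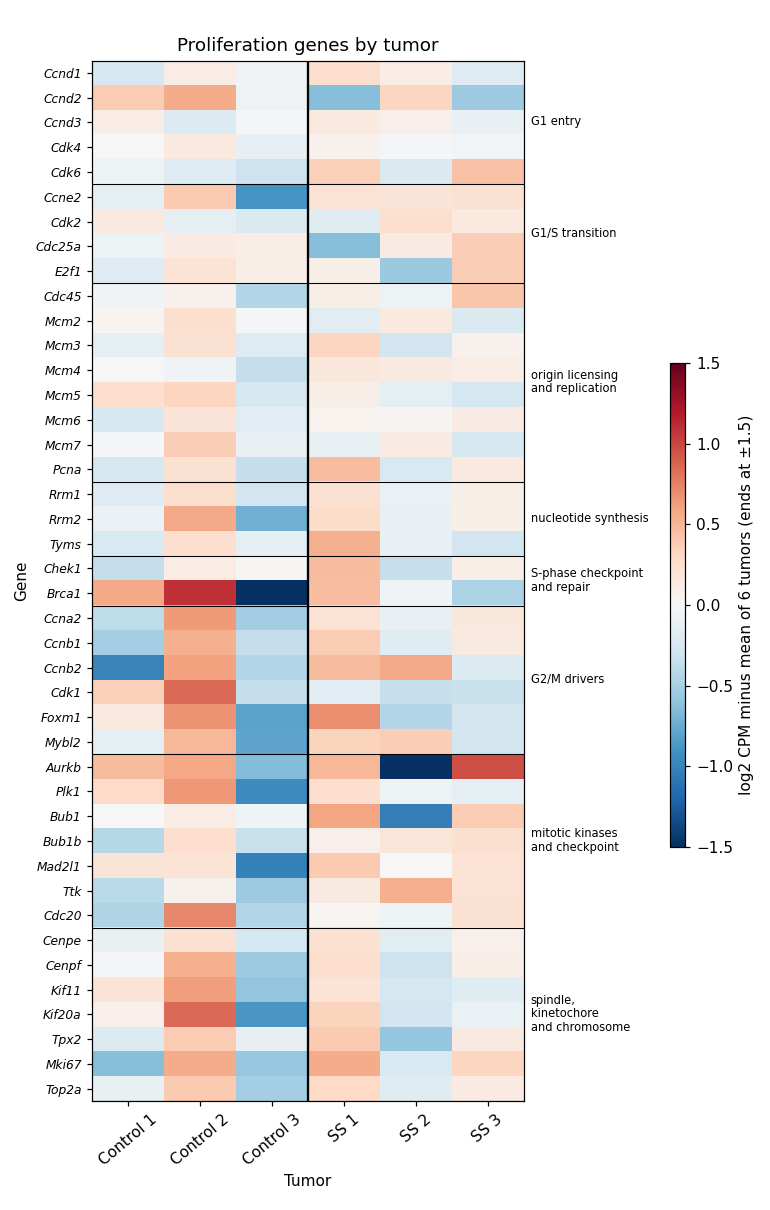
Log2 CPM of each tested member in each tumor minus its mean over the 6 tumors (color), with members ordered by role. Control tumor 2 is mostly red and control tumor 3 mostly blue, deepest at Brca1, and the SS columns are paler for most members, with SS tumor 2 at Aurkb and Bub1 as exceptions.

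By role, this spread was as follows, with no test. The median ratio of CPM in control tumor 2 to that in control tumor 3 was 1.12 for G1 entry, 1.07 for G1/S, 1.36 for replication and 1.47 for nucleotide synthesis, and it was 2.29 for the G2/M drivers, 2.26 for mitotic kinases and 2.18 for spindle genes, against 1.00 for all genes. It was 5.93 for the checkpoint and repair pair, where Brca1 had few counts. For Plk1 the ratio was 3.05, from 779 and 306 counts, and for Kif20a it was 3.36. The median range over the control tumors was 1.25 log2 units for G2/M drivers, 1.17 for mitotic kinases and 1.07 for spindle genes, with 0.31 for G1 entry, 0.38 for G1/S, 0.45 for replication, 0.55 for nucleotide synthesis, 1.58 for the checkpoint and repair pair and 0.46 for all genes. Among SS tumors it was 0.60 for G2/M drivers, 0.39 for mitotic kinases, 0.58 for spindle genes and 0.49 for all genes. The other SS medians were 0.45 for G1 entry, 0.68 for G1/S, 0.37 for replication, 0.39 for nucleotide synthesis and 0.88 for the checkpoint and repair pair. The late roles thus did not have the widest ranges among SS tumors. For single members, the control range was the larger one for 28 of 42 members (66.7%, against 47.7% of all genes). Over the 6 tumors, the correlation of log2 CPM between 2 members had a median of 0.48 over 861 pairs, and 81.2% of pairs were positive, against a median of -0.0018 and 49.9% for all pairs of genes tested. Pairs of members and all other pairs share the same 6 libraries and their depth.

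**Figure D5:**
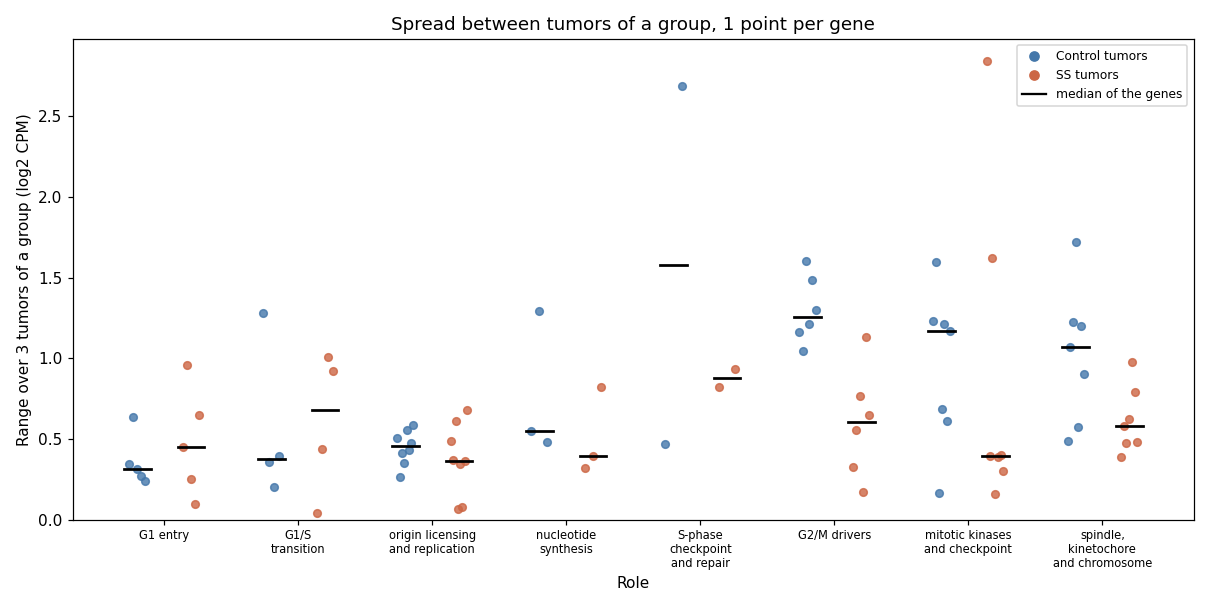
Range of log2 CPM over the 3 tumors of a group (vertical axis), with 1 point per member and a bar at the median of each role. In control tumors the medians are 1.07 to 1.25 for the G2/M, mitotic kinase and spindle roles and 0.31 to 0.55 for the roles from G1 entry to nucleotide synthesis, while the S-phase checkpoint role rests on 2 genes.

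Levels between members were compared per length, as mean CPM per kilobase over the 6 tumors with each transcript divided by its own length, for 40 tested members with a known length for every transcript (Mad2l1 and Mcm7 were left out). The order opened with Cdk4 at 145, Top2a at 63.3, Cdk2 at 28.6, Rrm1 at 22.8, Cdc45 at 21.8 and Mcm4 at 19.7 CPM per kilobase, and closed with Bub1 at 0.493, Mki67 at 0.489, Cenpf at 0.278 and Brca1 at 0.138. Neighbours such as Rrm1 and Cdc45 were close compared with the spread between tumors, whereas Cdk4 and Top2a stood apart. Of all member counts, Cdk4 took 18.6% to 22.8% and Top2a 18.9% to 24.0%, depending on the tumor. Such an order depends on how reads were assigned to transcripts. B2m, a gene that nearly all cells express strongly, was listed at only 1.66 to 3.85 CPM while Actb was at 71000 to 79630 CPM, so low levels in this table were not read as low expression.

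Genes outside the list with related roles were compared in the same way, and their counts are to be read against the 6.36% of all genes under an unadjusted p of 0.05. Of 43 other S-phase genes tested, 1 had an unadjusted p under 0.05, Clspn, an adaptor of Chek1, at 8.06, 7.18 and 6.40 CPM in control and 11.7, 7.75 and 12.8 CPM in SS tumors (0.58 ± 0.25). Of 35 other mitosis genes 1 did, Mad1l1, which recruits Mad2 to kinetochores, at 8.85, 5.46 and 7.31 against 13.6, 10.6 and 12.9 CPM (0.79 ± 0.24), where the groups did not overlap. Of 14 subunits of E2F and DREAM complexes 1 did, E2f2, at 6.40, 4.77 and 3.94 against 9.58, 6.20 and 12.5 CPM (0.91 ± 0.33). Their edgeR adjusted p was 0.771 each. The median differences of these lists were 0.055, 0.028 and 0.036.

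Inhibitors of the cycle and subunits of its ubiquitin ligases followed. Among 14 inhibitors of cyclin-dependent kinases and other brakes, 4 were higher and 10 lower, with a median of -0.082 beside a median SE of 0.22, and 0 were under an unadjusted p of 0.05. Cdkn1b, for the inhibitor p27, was at 27.6, 25.0 and 35.5 against 25.1, 24.0 and 25.4 CPM (-0.24 ± 0.17), and Cdkn2a was at 32.1 to 45.9 and 40.9 to 42.8 CPM. Of 21 subunits of the APC/C and SCF ubiquitin ligases, 5 were higher and 16 lower, against 50.2% of all genes lower, with a median of -0.070 beside a median SE of 0.14, and 2 had an unadjusted p under 0.05. The groups did not overlap for 3 of the 21, against 12.9% of all genes. Cdc27 was at 142, 138 and 157 CPM in control and 114, 115 and 106 CPM in SS tumors (-0.39 ± 0.098), and Cdc16 at 49.6, 62.3 and 70.4 against 46.9, 49.1 and 46.6 CPM (-0.36 ± 0.14). Both encode core APC/C subunits, and their edgeR adjusted p was 0.760 and 0.771. The third was Rbx1, the RING subunit of SCF, which lay on the other side at 22.4, 22.2 and 21.0 against 25.7, 29.0 and 24.5 CPM (0.27 ± 0.14, adjusted p of 0.792).

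Markers of cell types were as follows, and their part in the values above was not tested. Whole-tumor RNA does not tell whether a marker came from the C0321 cells or from other cells. Summed fibroblast markers (9 of 9 in the table) were at 12933, 18911 and 14826 CPM in control and 9153, 18312 and 14911 CPM in SS tumors. Leukocyte markers (11 of 16) were at 631 to 756 and 687 to 886 CPM, T cell markers (3 of 10) at 16.5 to 81.2 and 11.4 to 32.7 CPM, endothelial markers (7 of 8) at 66.5 to 106 and 89.5 to 162 CPM, and epithelial markers (10 of 10) at 527 to 947 and 514 to 934 CPM. Adipocyte markers (8 of 8) varied most, at 364, 32.6 and 10.9 against 59.1, 196 and 39.5 CPM. Most of that sum was Car3, at 306, 30.3 and 9.48 against 40.5, 167 and 37.2 CPM. Erythrocyte markers (5 of 5) were at 1890 to 3927 CPM in control and 853 to 1934 CPM in SS tumors, with 4 of 5 lower under an unadjusted p of 0.05. Under the same p, 1 of 8 tested leukocyte markers was higher, Itgax (CD11c), at 66.9, 49.4 and 50.9 against 173, 131 and 89.6 CPM (1.24 ± 0.24, edgeR adjusted p of 0.679). Of 6 endothelial markers Vwf (1.20) and Esam (0.58) were higher, and of 10 epithelial markers Krt18 was lower (-0.50 ± 0.12), with an adjusted p of 0.760. Control tumors 2 and 3, which differed most in the proliferation genes, were the deepest libraries.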

How the data were processed

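Stranded, polyadenylated RNA of 6 tumors was sequenced with paired reads of 75 nucleotides. For 20648 RefSeq transcripts the table deposited by the authors holds estimated counts, not normalized, with a sum of 10 or more over the tumors. The submitters' processing notes list CASAVA 1.8.1, Bowtie2 2.2.5, STAR 2.5.3a and mm10, and the counting tool is not given in the sources used here. The study's methods name quantile normalization and a t statistic.

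Deposited counts were summed by symbol (21 symbols held as dates were restored from the transcript names) and rounded. Groups came from the sample titles, and tumors are separate mice. CPM used TMM-scaled totals of tested genes. The comparison was edgeR 4.0.16 in R 4.3.3, with its default expression filter, quasi-likelihood fit, the 3 tumors of each group and no covariate, tested on simulated data first. SE is the log2 fold change over the square root of F. An exact permutation p cannot go below 0.1 with 3 against 3. Alternatives were DESeq2 1.42.0, limma-voom (limma 3.58.1), quantile normalization with a t statistic, other scalings and filters, thinning, a replicate block and leaving out each tumor. Transcript tests were added later. Named genes were the 5 higher and 5 lower members with the smallest p and fixed members per role, and further members were named to describe their role. Members and lists were chosen with earlier results of these data known. Lengths are of GENCODE M21 transcripts paired with RefSeq. The deposited stop lay 1 base past the RefSeq gene end for 33 of 47 members and on it for 2, so 1 was subtracted from stops for printing. A median of a list is a description, with no test. Counting limits cover counting error only.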

Additional observations from a re-analysis of the deposited data

How the results depend on the processing

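The number of members under an adjusted p of 0.05 was 0 under every alternative run, including transcripts in place of genes. The number under an unadjusted p of 0.05 was 1 with DESeq2, limma-voom and a minimum of 1 CPM in every tumor (Cdk6 in each), 1 with libraries thinned to the smallest (Mcm4), 1 with transcripts in place of genes (Cdk2), and 0 with other scalings, no filter or quantile normalization. In these fits of genes 5.75% to 7.35% of all genes lay under it. Leaving out 1 tumor gave 0 to 2 members, with 4.58% to 7.81% of all genes. Without control tumor 2 these were Ccna2 and Ccnb2, without control tumor 3 Cdk1, and without SS tumor 2 Ccnd2 and Cdk6. The median log2 difference of the members ran from -0.0091 without control tumor 3 to 0.29 without control tumor 2. The sign turned for Cdk4 (0.015) and Aurkb (-0.23) with quantile normalization, and for Brca1 (0.33), Foxm1 (0.11) and Plk1 (0.098) with limma-voom. On leaving out 1 tumor, Cdk4 ran from -0.075 to 0.061, E2f1 from -0.25 to 0.18, Rrm2 from -0.18 to 0.47, Brca1 from -0.93 to 0.24, Chek1 from -0.044 to 0.37, Ccnb1 from -0.018 to 0.59, Foxm1 from -0.50 to 0.36, Plk1 from -0.46 to 0.23, Aurkb from -0.46 to 0.55 and Top2a from -0.063 to 0.40. Ccnd1 (0.021 to 0.24), Pcna (0.077 to 0.48), Cdc45 (0.13 to 0.39), Mcm4 (0.17 to 0.33), Bub1b (0.19 to 0.57), Mki67 (0.17 to 0.89), Mcm2 (-0.28 to -0.077), Mcm5 (-0.39 to -0.13) and Mcm7 (-0.27 to -0.0058) kept their sign but moved by over 1.5 times. The highest value came without control tumor 2 for each of these except Ccnd1 (without SS tumor 3) and Mcm4 (without control tumor 1). The causes were not tested.

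With the replicate number as a block, the median difference was 0.11, and 0 members had an adjusted p under 0.05. At an unadjusted p under 0.05 there were also 0 members, against 5.9% of all genes. Foxm1 (0.0039), Plk1 (0.012) and Aurkb (-0.14) changed sign. Tumors of the same number are different mice, and their deviations correlated at 0.12, 0.021 and 0.077, so the numbers were not taken to pair them. The 3 tumors per group limit what could be seen for every member, and the smallest edgeR adjusted p of all genes tested was 0.616. For members of low count, SEs up to 0.83 and the 8468948 counts of SS tumor 2 are a further limit.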
